A study of Homo sapiens with 8 samples.

Results

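The RNA interference machinery turns double-stranded precursors into small RNAs that silence matching transcripts. The members examined were DICER1, DROSHA, DGCR8, XPO5, AGO1, AGO2 and TARBP2, chosen by name, and their measurements were all probe sets that the platform annotation assigns to 1 of these symbols and to no other. That left 9 of 22215 non-control probe sets, which represent 4 of the 7 genes: 6 for DICER1 and 1 each for DROSHA, TARBP2 and AGO1. The annotation ties 4 further probe sets to DGCR8 together with MIR1306, a microRNA gene that lies inside DGCR8, and 1 to AGO2 together with another symbol, so these were not used here, and no probe set was listed for XPO5.

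In the nucleus DROSHA, an RNase III enzyme that works with its partner DGCR8, cuts primary microRNA transcripts into hairpins. XPO5 carries the hairpins to the cytoplasm, where DICER1, a second RNase III enzyme, trims them to short duplexes with the help of the double-stranded RNA-binding protein TARBP2. One strand is loaded into an Argonaute protein such as AGO1 or AGO2, which holds the guide strand in the silencing complex. Hairpins made from shRNA vectors draw on the same export, dicing and loading steps as natural microRNAs.

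Transcripts were measured on 8 Affymetrix human arrays, 6 of them of HT29, an established line from a human colorectal cancer, and 2 of Colo357, an established line from a human pancreatic cancer. Each of the 4 shRNA arrays was of a different HT29 clone: 1 clone with a vector for a CD24-directed shRNA, 2 clones with 2 such vectors, called here the first and the second 2-vector clone, and 1 clone with a GFP-directed shRNA. Uncloned HT29 and uncloned Colo357 had 1 array each after 72 h with the anti-CD24 antibody SWA11, diluted 1:40, and 1 array each without treatment. The study compared cells before and after CD24, a glycosylated surface protein, was lowered by shRNA or bound by the antibody. The vector backbone and the shRNA sequences were not given in the sources used here, and a control antibody was not analysed here. Since the labels name no separate cultures, a p-value here reflects only how far these arrays spread, which may be technical.

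The target was lower as labelled: the brightest CD24 probe set was at 558 (1 vector), 171.7 and 595.5 (2 vectors) in the CD24 shRNA clones, against 7362.5 in the GFP clone and 6425.1 in untreated HT29. All 5 epithelial markers were present in uncloned HT29, but of 7 colon epithelium markers CDX1, CDX2, CDH17 and GPA33 read 33.9 or less there, with summed levels of 3488.7 to 4986.7 in the clones against 6180.6 to 11119.1 in uncloned HT29 and 1163.4 to 1393.1 in Colo357. Of the colon markers LGALS4 read 32.5 to 682.2 in the clones against 4581.5 in untreated HT29, whereas KRT20 read 2761.4 to 4799.8 against 1117.1. The summed epithelial markers overlapped, at 34900.3 to 39167.5 in the clones and 33856.2 to 39186.3 in uncloned HT29. Among them E-cadherin (CDH1) read 1.4 to 15.4 in the 4 clones against 2172.8 in untreated HT29, while KRT8 read 11018.9 to 14029.2 against 9108.5. The 5 measured pancreatic duct markers summed to 7690.8 to 8582.2 in Colo357, against 952.6 to 1624.7 in uncloned HT29. Most of that sum was KRT7, at 7502.6 with antibody and 5468.1 without, while SOX9 (394.4 in Colo357 against 1362.4 in HT29, both untreated) and CFTR (1.5 against 167.2) were lower in Colo357. Of 11 measured markers of leukocytes, endothelium, fibroblasts and acinar cells, 7 stayed under 45.0 on every clone array and 9 on both uncloned HT29 arrays, with sums of 220.1 to 372.2 in the clones against 233 to 268.8 in uncloned HT29. Median probe set intensity ranged from 32.4 to 63.1. RNA controls set the first 2-vector clone apart: its 18S rRNA 3′ probe set was at 434.8, with 14.7 to 48 elsewhere, and its ACTB signal was 1.77 times as high at the 3′ end as at the 5′ end, with 1.06 to 1.17 times elsewhere. Results that involve the clones are therefore also given without that array where it matters.

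TARBP2 and AGO1, like 18.7% of tested probe sets, were higher in every clone than on either array of uncloned HT29. Their upstream sequences are shown for that reason. Each is the 250 bases before a start in the RefSeq promoter table (GRCh38.p14), 5′ to 3′ on the plus strand, and capitals mark CCAAT boxes, searched as CCAAT and as its reverse complement ATTGG. The TARBP2 window is chr12:53500673-53500922 and ends just before the gene's annotated span. The AGO1 window, chr1:35882959-35883208, precedes the only start listed for AGO1 in that table but lies inside the span that RefSeq gives the gene, and whether it is exonic or intronic there was not analysed here.
TARBP2: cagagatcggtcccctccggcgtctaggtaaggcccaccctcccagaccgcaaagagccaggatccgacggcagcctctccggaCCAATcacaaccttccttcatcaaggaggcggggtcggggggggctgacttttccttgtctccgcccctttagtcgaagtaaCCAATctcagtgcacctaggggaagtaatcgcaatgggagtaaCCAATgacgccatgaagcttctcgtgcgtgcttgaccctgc
AGO1: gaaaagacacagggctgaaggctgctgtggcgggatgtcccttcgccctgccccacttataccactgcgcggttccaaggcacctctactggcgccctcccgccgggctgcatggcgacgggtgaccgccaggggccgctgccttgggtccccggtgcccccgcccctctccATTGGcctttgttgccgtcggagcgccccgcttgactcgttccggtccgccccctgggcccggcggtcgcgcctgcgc
The TARBP2 window held 3 CCAAT boxes and the AGO1 window 1. Of 35116 windows of this length in the RefSeq table, 32.0% held at least 1. A GC box (GGGCGG or CCGCCC) occurred once in the TARBP2 window and 2 times in the AGO1 window, and in 42.6% of all windows. RefSeq lists 3 starts for TARBP2, and the other two windows held 0 and 1 CCAAT boxes. Of the 5 DICER1 windows 2 held 1 each and 3 held 0, and the single DROSHA window held 3. These matches are descriptions of the letters in the windows.

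DICER1 (chr14:95086228-95158010, minus strand) was the member that varied most between arrays. Its brightest probe set, 213229_at, read 31.6 in the 1-vector clone, 32 and 121.1 in the 2-vector clones and 211.8 in the GFP clone, against 43.5 in antibody-treated and 121 in untreated HT29. In Colo357 it read 51.8 with antibody and 98.9 without. The GFP clone was thus the highest of the 8 arrays and the 1-vector clone the lowest, 6.70-fold apart. The GFP array also had the highest median intensity over all probe sets, 63.1. The lowest medians were those of the first 2-vector clone, 32.4, and the 1-vector clone, 36.9. The part of this in the DICER1 readings was not tested. The 4 clones lay on both sides of the uncloned HT29 arrays.

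The 2 other bright DICER1 probe sets ordered the arrays in much the same way. Probe set 212888_at read 11.3 in the 1-vector clone, 15.9 and 88.7 in the 2-vector clones and 185.9 in the GFP clone, against 35.4 in antibody-treated and 78 in untreated HT29, with 35.6 in treated and 81.8 in untreated Colo357. Probe set 206061_s_at read 14.4, 19.5, 51.5 and 119.2 in the same 4 clones, against 40.5 in treated and 60.2 in untreated HT29, with 20 in treated and 80.3 in untreated Colo357. All 3 placed the 1-vector clone lowest, the first 2-vector clone next and the GFP clone highest. The highest and lowest arrays were 16.5-fold and 8.28-fold apart. The remaining 3 DICER1 probe sets were dim: 216260_at read 2.6 to 20, 216280_s_at 1.5 to 9.6 and 216281_at 0.6 to 3.3. They lay below 45.0, the median of all probe set values, which was the minimum mean for entering a test, and did not follow the order of the bright ones. No detection calls are given, so whether the dim probe sets measured transcript is unknown.

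**Figure D1:**
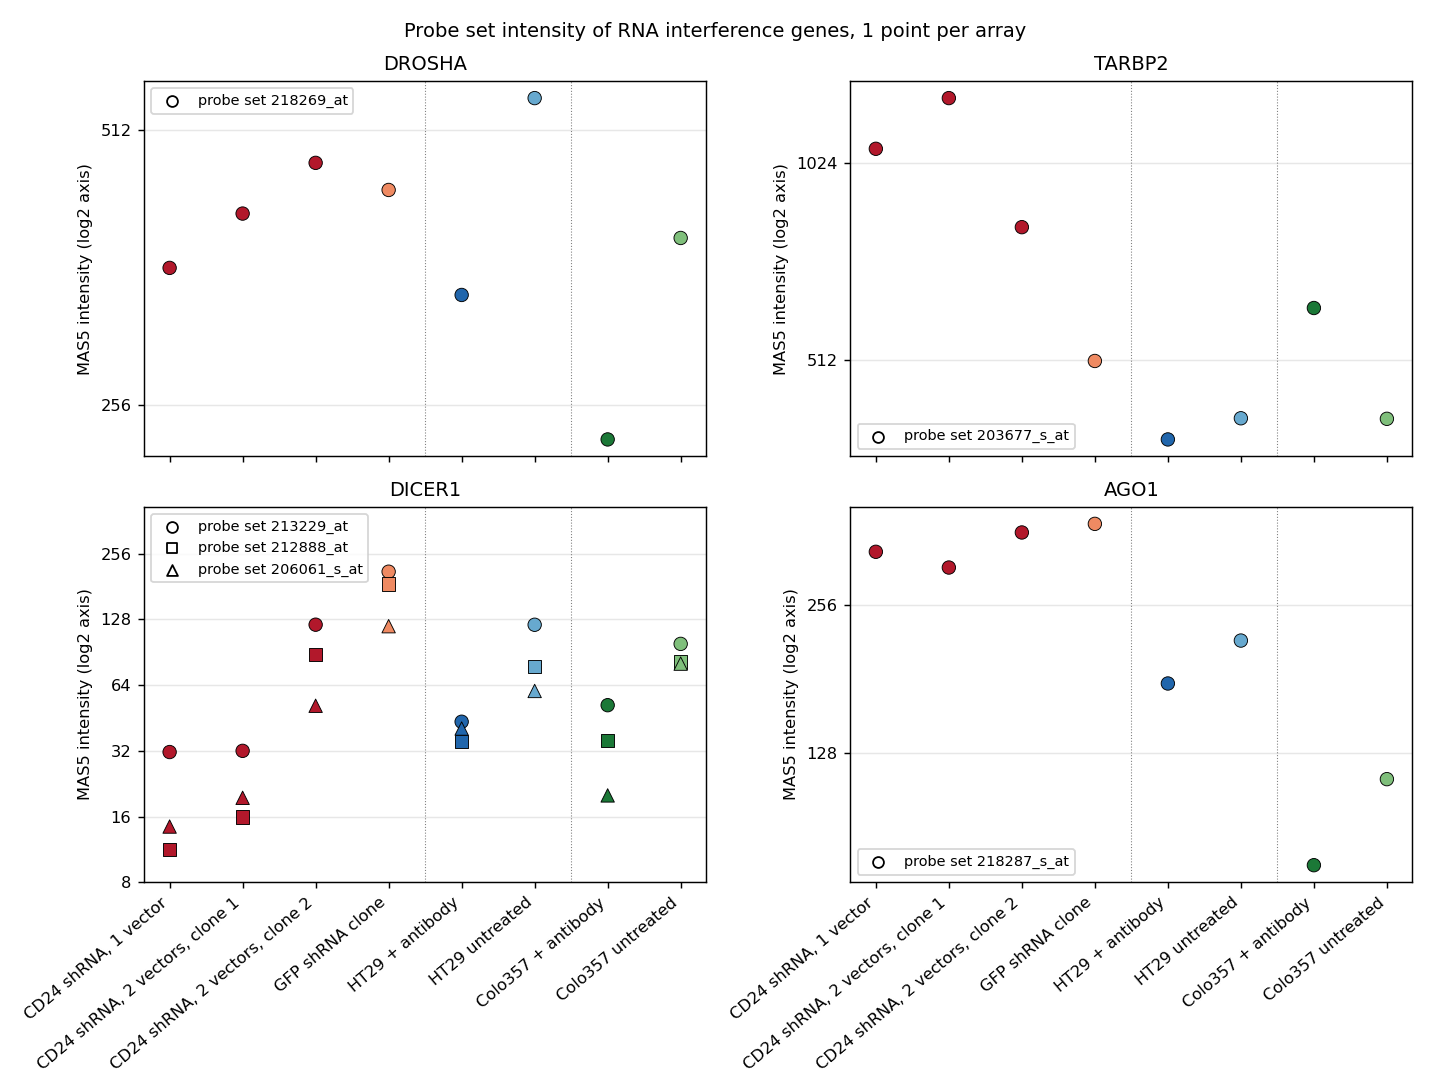
MAS5 intensity (log2 axis) of the 6 member probe sets bright enough to be tested, 1 point for each of the 8 arrays and no error bars, because each point is 1 array. The dotted lines separate the 4 shRNA clones, uncloned HT29 and Colo357. DICER1 spans 11.3 to 211.8 and differs among the clones, while AGO1 is at 304.4 or more in every clone and at 216.5 or less elsewhere. How many of all probe sets show a pattern like that of AGO1 was not counted.

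DROSHA (chr5:31400494-31532093), which makes the first cut, varied least of the 4 genes. Its probe set 218269_at read 361.9 in the 1-vector clone, 415.1 and 471.8 in the 2-vector clones and 440.6 in the GFP clone, against 338 in antibody-treated and 555.6 in untreated HT29. Colo357 read 234.7 with antibody and 390.3 without. Untreated HT29 was the highest array, and the 4 clones lay between the 2 uncloned HT29 arrays.

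TARBP2 (chr12:53500923-53506431), the partner of Dicer, had its highest readings in the CD24 shRNA clones. Its probe set 203677_s_at read 1075.2 in the 1-vector clone, 1284.5 and 816.7 in the 2-vector clones and 510.7 in the GFP clone, against 387.8 in antibody-treated and 417.7 in untreated HT29. Colo357 read 615 with antibody and 416.9 without. The 3 CD24 shRNA clones were above all 5 other arrays, and the GFP clone lay between HT29 and antibody-treated Colo357. The share of all probe sets with that pattern was not counted.

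AGO1 (chr1:35869761-35930532), an Argonaute protein of the silencing complex, read higher in the clones than in uncloned cells. Its probe set 218287_s_at read 327.6 in the 1-vector clone, 304.4 and 358.5 in the 2-vector clones and 373.2 in the GFP clone, against 177.2 in antibody-treated and 216.5 in untreated HT29. Colo357 read 75.9 with antibody and 113.4 without. The lowest clone was above the highest of the 4 arrays without shRNA, and the clones differed little among themselves. How many of all probe sets show that pattern was not counted. Against the 2 uncloned HT29 arrays alone, 18.7% of 11417 tested probe sets were higher in all 4 clones. Probe sets ending in _s_at, the only ones here for AGO1 and TARBP2, can be shared by several transcripts, so related transcripts may add to these readings.

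The first question was whether clones that carry an shRNA vector differed from uncloned HT29. AGO1 averaged 8.45 ± 0.13 on the log2(intensity + 10) scale in the 4 clones (SD, n = 4) and 7.69 ± 0.19 on the 2 uncloned HT29 arrays (SD, n = 2), a log2 difference of 0.76 ± 0.28 (SE) or 1.70-fold. TARBP2 averaged 9.78 ± 0.57 in the clones and 8.69 ± 0.07 in uncloned HT29, a difference of 1.10 ± 0.41 or 2.14-fold. Of the 2 uncloned arrays 1 was antibody-treated and 1 untreated, so their SD is not a spread of replicates. The tests treat them as alike, and differences from untreated HT29 alone are given further below. AGO1 and TARBP2 were both tested over all 6 arrays. Neither passed the limma test adjusted over all probe sets: adjusted p was 0.196 for AGO1 (unadjusted p = 0.0295) and 0.202 for TARBP2 (unadjusted p = 0.0316). The two-sided exact permutation test over the 15 splits of these 6 arrays gave p = 0.0667 for AGO1, the smallest possible, and p = 0.133 for TARBP2. All 4 clones were above both uncloned arrays for these 2 of 6 tested member probe sets, a pattern that 18.7% of the 11417 tested probe sets showed upward and 13.8% downward. By the adjusted test 2.35% of all probe sets were called and 0 of the 6 member probe sets, of which 2, both higher, had an unadjusted p under 0.05, against 20.1% of all probe sets in either direction and 12.4% upward. Without the first 2-vector clone the difference was 0.82 for AGO1 and 0.91 for TARBP2. The unadjusted limma p was then 0.0363 and 0.0595, so that of TARBP2 was no longer under 0.05.

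DICER1 and DROSHA did not separate clones from uncloned HT29. The log2 difference was 0.01 ± 0.78 (SE) for DICER1 213229_at, -0.15 ± 0.92 for 212888_at and -0.28 ± 0.67 for 206061_s_at, with adjusted p = 0.854 to 0.995 in limma. The 95% interval for 213229_at ran from -1.80 to 1.83, so a difference of 2-fold or more in either direction was within it. DROSHA differed by -0.04 ± 0.32 (interval -0.80 to 0.71; adjusted p = 0.956). For DICER1 the SD among the 4 clones, 1.21 for 213229_at, exceeded the difference.

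Against untreated HT29 alone, an array that is assumed to vary like the clones, the differences were 1.04 ± 0.59 for TARBP2, 0.63 ± 0.40 for AGO1, -0.39 ± 0.40 for DROSHA and -0.63 ± 1.02 for DICER1 213229_at (SE; limma adjusted p = 0.599, 0.622, 0.733 and 0.825). TARBP2 and AGO1 were above untreated HT29 in 4 of 4 clones, as were 27.3% of 11420 tested probe sets, and DROSHA was below it in 4 of 4, as were 23.8%. By adjusted p, 0.131% of probe sets were called and 0 of 6 member probe sets, 0 of them with an unadjusted p under 0.05, against 10.4% of all. The exact permutation test of 4 clones against 1 array cannot go below p = 0.2. The 2 comparisons share the 4 clones and the untreated array, so the second gives no independent support. In the simulated data described below, the test against untreated HT29 missed even 8-fold differences.

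**Figure D2:**
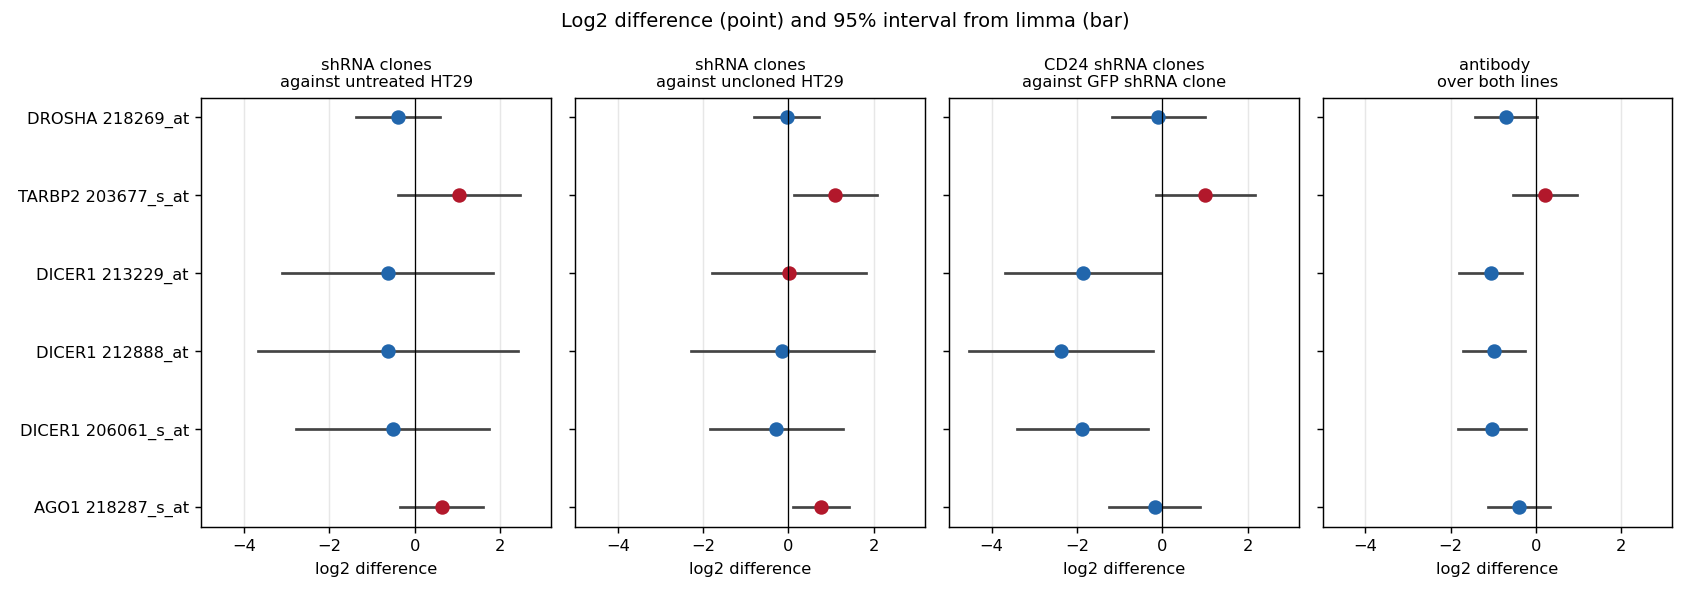
Log2 difference of each tested member probe set (point, red above 0 and blue below) with its 95% interval from limma (bar) in 4 comparisons. In the comparison with uncloned HT29 the intervals of TARBP2 and AGO1 lie above 0 before adjustment over all probe sets, and the 3 DICER1 intervals lie below 0 for the antibody and for the CD24 shRNA clones against the GFP clone. None passed the adjusted test.

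The GFP clone also carries an shRNA, so the CD24 shRNA clones were set against it. The GFP side is 1 clone, and 2 of the CD24 shRNA clones carry 2 vectors. The target of the hairpin, the clone and the number of vectors therefore cannot be told apart here. DICER1 was lower in all 3 CD24 shRNA clones than in the GFP clone on its 3 bright probe sets, by log2 differences of -1.86 ± 0.76 (213229_at), -2.37 ± 0.89 (212888_at) and -1.87 ± 0.63 (206061_s_at; SE). That is 3.63-fold, 5.17-fold and 3.65-fold lower, each with limma adjusted p = 0.433 and unadjusted p = 0.0236 to 0.0469. TARBP2 was higher by 1.01 ± 0.48, or 2.02-fold (adjusted p = 0.453). AGO1 differed by -0.17 ± 0.44 and DROSHA by -0.09 ± 0.45, with intervals of -1.24 to 0.89 and -1.18 to 1.00.

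In that comparison 4 of 6 member probe sets (the 3 of DICER1 and AGO1) were lower in every CD24 shRNA clone, as were 38% of 11342 tested probe sets, and TARBP2 was higher, as were 28.5%. By adjusted p, 0% of probe sets were called (1303 had an unadjusted p under 0.05, or 11.5%), and 0 of the 6 member probe sets (3 with an unadjusted p under 0.05, all lower, against 9.26% of all). The comparison rests on a single GFP array, whose own spread is unknown. That array also had the highest median intensity, 63.1. Of all probe sets 21.3% were lower by 2-fold or more in the CD24 shRNA clones and 4.87% higher. Without the second 2-vector clone the 3 DICER1 probe sets passed (log2 differences -2.27 to -3.06, adjusted p = 0.0462 to 0.0471), and 820 of all probe sets passed as well. That clone read 121.1 for 213229_at, close to untreated HT29, while the other 2 CD24 shRNA clones read 31.6 and 32. The dap spike control, described below, read 778 and 627.7 in those 2 clones, 366.1 in the clone left out and 238 in the GFP clone. Target and dap thus cannot be told apart there. Without the first 2-vector clone, whose RNA controls stood apart, 0 member probe sets passed.

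The second question was what the antibody did in cells without shRNA. DICER1 was lower with antibody in both lines on all 3 bright probe sets: 213229_at read 43.5 in treated against 121 in untreated HT29 and 51.8 in treated against 98.9 in untreated Colo357. The log2 differences in HT29 were -1.29, -0.95 and -0.48 for 213229_at, 212888_at and 206061_s_at, and those in Colo357 were -0.82, -1.01 and -1.59. DROSHA was lower as well, by 1.63-fold in HT29 and 1.64-fold in Colo357. AGO1 differed by -0.27 in HT29 and -0.52 in Colo357. TARBP2 went opposite ways, -0.10 in HT29 and 0.55 in Colo357.

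Over both lines, with the line as a block, DICER1 differed by -1.05 ± 0.34, -0.98 ± 0.34 and -1.03 ± 0.37 (SE, n = 2 lines), about 2-fold lower, and limma gave adjusted p = 0.0847, 0.0987 and 0.111 (unadjusted p = 0.00861, 0.0117 and 0.0149). DROSHA differed by -0.71 ± 0.34 (adjusted p = 0.221), AGO1 by -0.40 ± 0.34 (0.506) and TARBP2 by 0.22 ± 0.35 (0.742). Thus 5 of 6 member probe sets were lower in both lines, as were 37.7% of 11785 tested probe sets. Of those 5, 3 are of the single gene DICER1 and ordered the arrays much alike, so they are not separate members. On 212888_at and 206061_s_at both treated arrays read under 45.0, so these probe sets passed the filter through the untreated readings. By the adjusted test 0 of 6 passed, and 5.63% of all were called. The 3 DICER1 probe sets had an unadjusted p under 0.05, against 15.2% of all probe sets that did so downward. With 1 residual degree of freedom, the SE of this fit rests mostly on spread pooled over probe sets. In a fit of all 8 arrays the adjusted p of the 213229_at difference was 0.755. One array against one, readings lower by 2-fold or more were found for 8.13% of probe sets in HT29 and 14% in Colo357, and higher ones for 4.64% and 10.2%.

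The DICER1 readings moved with a technical control. The dap transcript is a bacterial RNA that can be added to samples to follow labelling, and its 3′ probe set read 538.3 in antibody-treated HT29, 842.2 in antibody-treated Colo357, 778 in the 1-vector clone and 627.7 in the first 2-vector clone. These 4 arrays had the 4 lowest readings of DICER1 213229_at, 31.6 to 51.8. On the other 4 arrays dap read 235.3 to 366.1 and DICER1 98.9 to 211.8. The share of all probe sets that separate these arrays in the same way was not counted. The part of this control in the DICER1 readings was not tested. AGO1 was also lower on the high-dap arrays of each group: 327.6 and 304.4 in the 1-vector and the first 2-vector clone against 358.5 and 373.2 in the other 2 clones, and lower with antibody than without in both lines. DROSHA was lower on them too: 361.9 and 415.1 in those 2 clones against 471.8 and 440.6 in the other 2, and with antibody in both lines. TARBP2 was higher in those 2 clones, 1075.2 and 1284.5, than in the other 2, 816.7 and 510.7, and higher with antibody than without in Colo357 but not in HT29. The part of dap in these readings was not tested either. In a bulk sample, fewer cells that express a gene and less transcript per cell cannot be told apart.

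**Figure D3:**
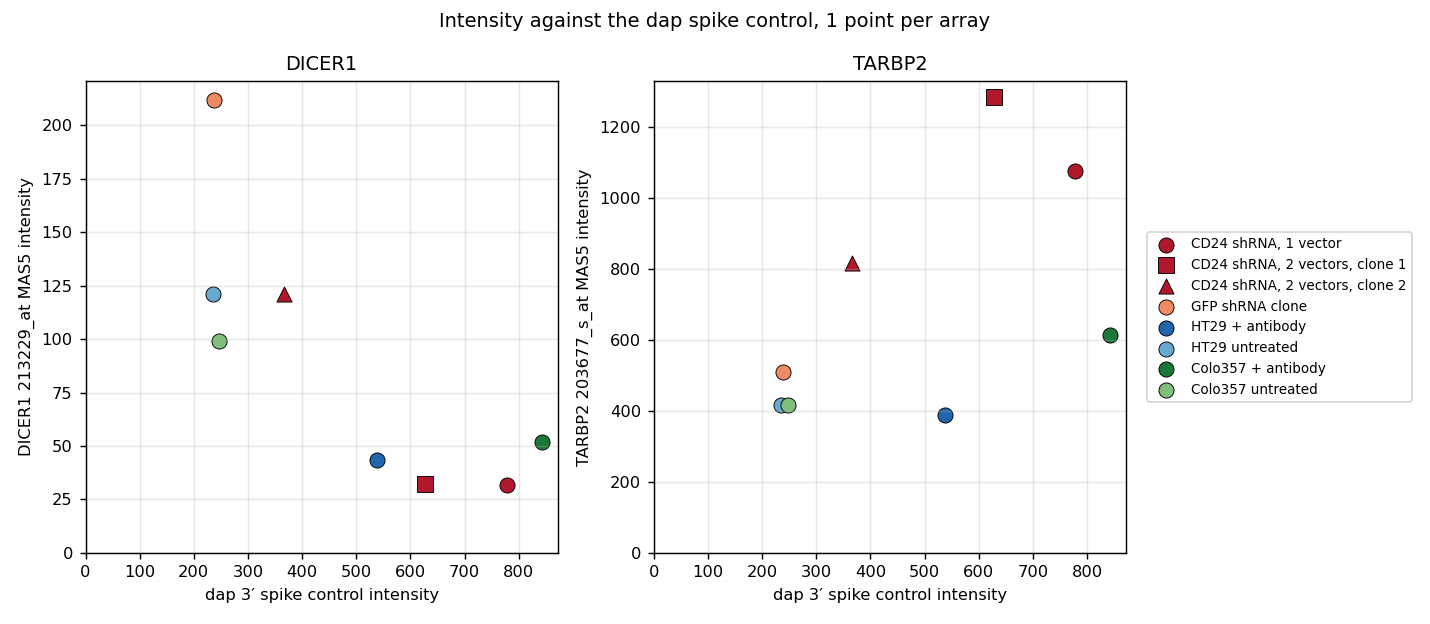
Intensity of DICER1 (left) and TARBP2 (right) against the dap 3′ spike control, 1 point for each of the 8 arrays, both axes linear from 0. The 4 arrays with dap above 500 have DICER1 readings of 31.6 to 51.8 and the 4 with dap below 400 have 98.9 to 211.8. How many of all probe sets separate these arrays likewise was not counted. The TARBP2 readings overlap, with 387.8 to 1284.5 on the arrays with dap above 500 and 416.9 to 816.7 on the others. Among the clones alone, the 2 with high dap have the higher TARBP2.

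Without treatment the 2 lines differed most in AGO1, 113.4 in Colo357 against 216.5 in HT29, a log2 difference of -0.88. DROSHA differed by -0.50. TARBP2 read 416.9 in Colo357 and 417.7 in HT29, and the DICER1 probe sets differed by -0.27, 0.06 and 0.36. With 1 array each there is no test, and at 2-fold 11.8% of 11810 probe sets were lower in Colo357 and 14.9% higher.

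Over all 8 arrays, the other gene whose log2 readings correlated best with DICER1 213229_at was NCOA2, a nuclear receptor coactivator (Pearson r = 0.986). It read 48.8 in the 1-vector clone, 46.8 and 205.4 in the 2-vector clones and 366 in the GFP clone, against 56.9 in treated and 176.1 in untreated HT29. For TARBP2 it was the mitochondrial carrier SLC25A38 (r = 0.994), for AGO1 the phosphatidylinositol kinase PI4KA (r = 0.986) and for DROSHA the exchange factor ARHGEF7 (r = 0.972). Each was the best of 7180 genes, and the arrays share lines and clones. DICER1 had 177 genes with r over 0.9, AGO1 174, TARBP2 114 and DROSHA 25, so these likenesses were common for the first 3.

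The rest of the pathway was followed through 75 genes in 7 lists, of which 56 had a probe set with that symbol alone. Between the clones and uncloned HT29, 0 of 48 tested genes passed adjusted p 0.05, and 4 were 2-fold or more higher and 5 lower (8.33% and 10.4%, against 10.9% and 11.1% of all probe sets). Among cofactors of the DROSHA complex SMAD3, a signal transducer that can bind it, differed by 1.46 ± 0.29 (SE; limma adjusted p = 0.0501) and HNRNPA1 by 1.10 ± 0.42. SMAD3 read 645.7, 643 and 831.8 in the CD24 shRNA clones and 661.6 in the GFP clone, against 233.8 in treated and 256.4 in untreated HT29. All 4 clones were above both uncloned arrays, a pattern that 18.7% of all tested probe sets showed upward.

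Among Dicer partners and genes that load small RNAs, 8 of 9 tested members had a negative difference in the clones. Their median was -0.53, against -0.0028 for all probe sets, whose negative share was not counted. Here the chaperone HSP90AA1 was at -1.19 ± 0.75 and the Translin protein TSN at -0.92 ± 0.44. Of 17 tested silencing effectors 9 were negative (median -0.04), with the decapping enzyme DCP2 at -1.56 ± 0.76 and the RNA-binding protein FMR1 at -1.43 ± 0.77. Among export genes XPO1, a general exportin, was at -1.01 ± 0.84 and the nucleoporin NUP153 at -0.41 ± 0.61. The uridylating enzymes TUT4 and TUT7 were at 0.94 ± 0.69 and 0.48 ± 0.60, and the RNA-editing enzyme ADAR at 0.84 ± 0.34. None of these passed. XPO1, HSP90AA1, FMR1 and DCP2 split the clones: FMR1 read 48.4 and 71.2 in the 1-vector and the first 2-vector clone, against 263 and 337.9 in the second 2-vector and the GFP clone, and HSP90AA1 read 756.5 and 1723.9 against 4123.8 and 5197.8. The first 2 of these clones are also those with high dap, 778 and 627.7 against 366.1 and 238, whose part in the differences was not tested. With 1 array left out, XPO1 ranged from -1.59 to -0.43 (-0.43 without untreated HT29), DCP2 from -2.30 to -0.81, FMR1 from -1.85 to -0.99 and HSP90AA1 from -1.58 to -0.66. Double-stranded RNA sensors had a median of -0.19, with OAS2 at 0.63 ± 1.08 and the kinase EIF2AK2 at -0.42 ± 1.04.

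That last list split the clones. In the CD24 shRNA clones against the GFP clone its median was -2.95, with 5 of 7 tested members 2-fold or more lower and 0 past the adjusted test. OAS1 read 135, 42.7 and 50 in the CD24 shRNA clones against 866 in the GFP clone, and OAS2 read 35, 15.4 and 16.3 against 348.5. IFIH1 read 13.9, 12.9 and 23.5 against 214.9. OAS2 and IFIH1 were under 45.0 in every CD24 shRNA clone and passed the filter only through the GFP array. Both are among the 5 members counted as lower, so their part of that count was built in. Across all lists 16 of 48 tested genes were 2-fold or more lower in that comparison and 1 higher, or 33.3% and 2.08%, against 21.3% and 4.87% of all probe sets.

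**Figure D4:**
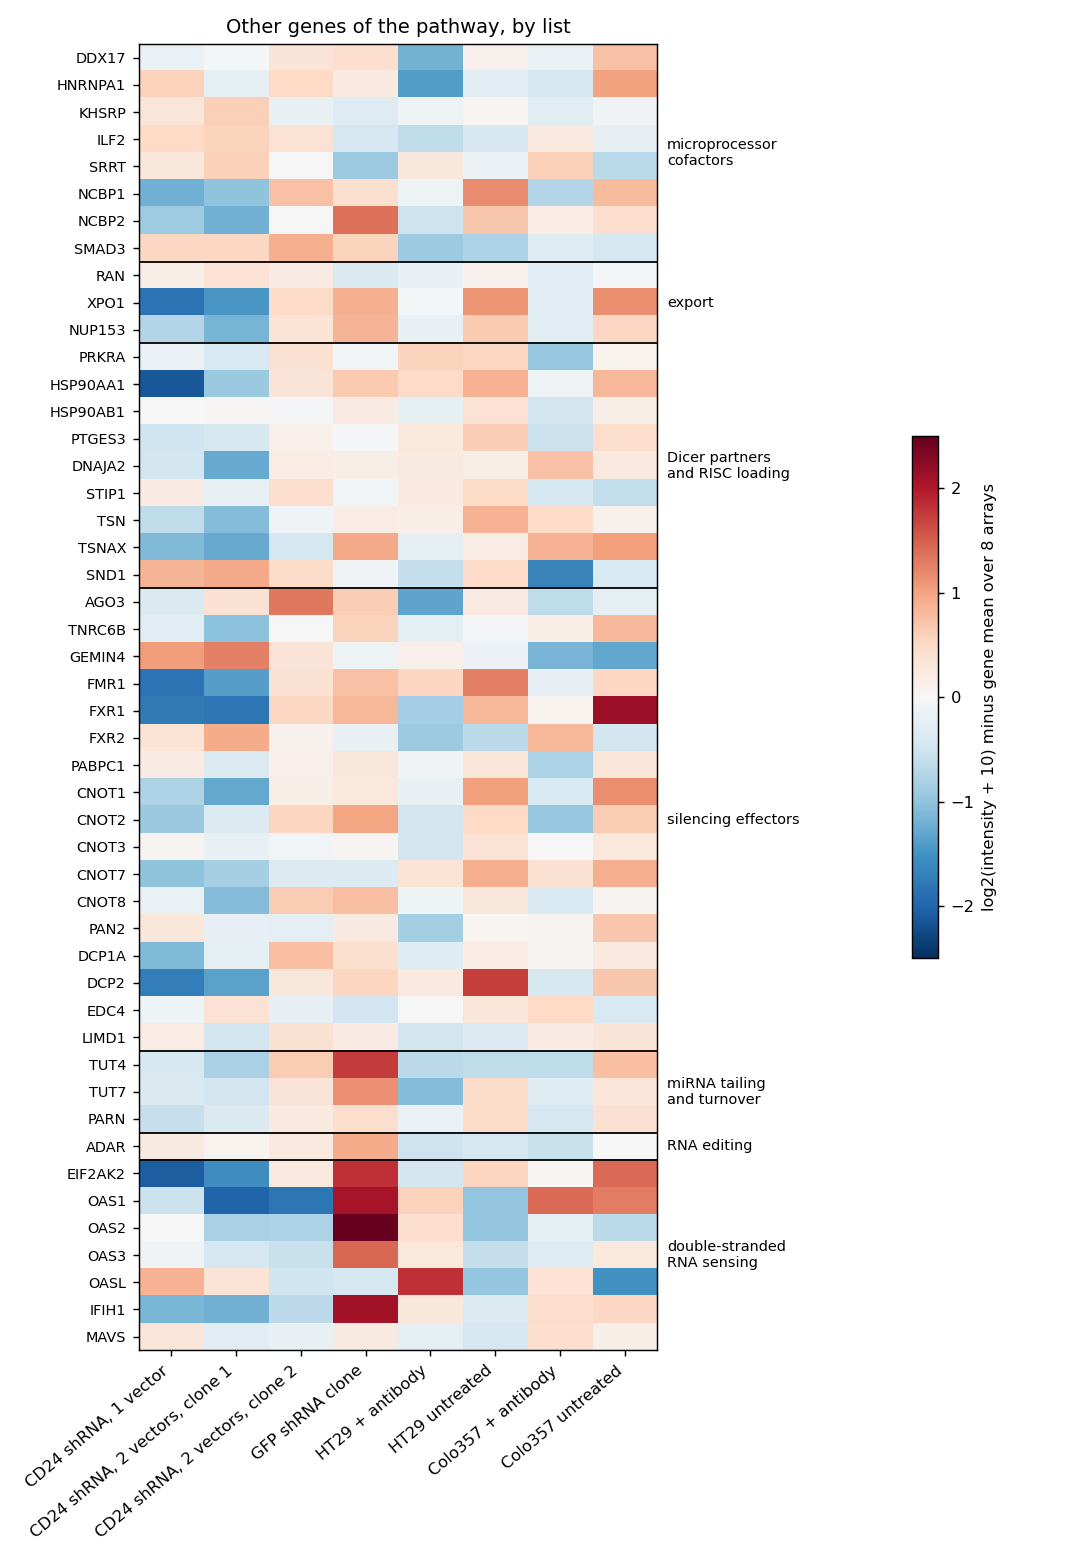
Log2(intensity + 10) minus the mean over the 8 arrays for the genes of the 7 lists with a mean intensity above 45.0, by array (columns) and list (rows); red is above and blue below the gene's own mean. OAS1, OAS2, IFIH1 and EIF2AK2 are highest or among the highest in the GFP clone, and XPO1, FMR1, FXR1 and DCP2 are lowest in the 1-vector and the first 2-vector clone.

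With the antibody, 6 of 47 tested pathway genes fell at adjusted p 0.05 and 1 rose (12.8% and 2.13%, against 3.89% and 1.74% of all probe sets). FXR1, an RNA-binding protein of the FMR1 family, read 115.2 in treated against 390.2 in untreated HT29 and 231 in treated against 990.8 in untreated Colo357, a log2 difference of -1.87 ± 0.34 (SE; limma adjusted p = 0.0128). CNOT1, the scaffold of the deadenylase complex that Argonaute complexes recruit, fell by 1.37 (adjusted p = 0.0358) and the decapping enzyme DCP2 by 1.28 (0.0465). The cap-binding protein NCBP1 fell by 1.41 (0.0316), HNRNPA1 by 1.29 (0.0444) and XPO1 by 1.29 (0.0436). The gene that rose was OASL, an interferon-induced relative of the OAS enzymes, by 2.33 ± 0.36 (0.00743). These calls were lost under quantile normalization, without the filter and in the fit of all 8 arrays, where 0 probe sets passed (2513, 3366 and 867 had an unadjusted p under 0.05). With pseudocount 1 or 1 probe set per gene OASL alone of these 7 passed, and with pseudocount 50 DCP2 did not (adjusted p = 0.0553).

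Of the 7 lists, 6 had a negative median in this comparison. Medians were -0.44 for DROSHA cofactors, -0.81 for export, -0.50 for loading, -0.54 for silencing effectors and -0.72 for tailing and turnover, against -0.05 for all probe sets, and 36 of 47 tested genes were negative, as were 53.5% of all probe sets. The nuclease SND1 was at -1.18 ± 0.34 and EIF2AK2 at -1.18 ± 0.34 (adjusted p = 0.057 and 0.0571), TUT7 at -1.08 ± 0.36, NUP153 at -0.81 ± 0.34, the deadenylase PARN at -0.72 ± 0.34, HSP90AA1 at -0.67 ± 0.35 and ADAR at -0.33 ± 0.34, none of which passed. Double-stranded RNA sensors went the other way, with a median of 0.26 and 5 of 6 tested members positive. The dap control was higher on both treated arrays, 538.3 against 235.3 in HT29 and 842.2 against 247.4 in Colo357, and its part in these differences was not tested.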

How the data were processed

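RNA of 8 cell samples was measured on Affymetrix human arrays, 1 array each. The authors deposited linear intensities made with MAS5, per the submitters' processing notes. The MAS5 version was not given in the sources used here. The mean trimmed by 2% was 250.1 on every array, so the intensities were used as deposited. Of 22215 non-control probe sets, 19064 carry 1 symbol in the platform annotation, 1043 more than 1 and 2108 none. Symbols were updated through RefSeq (GRCh38.p14) for 19052. Intensities became log2(intensity + 10), which understates differences of dim probe sets. Probe sets whose mean over the arrays compared exceeded 45.0, the median of all values, were tested with limma 3.58.1 in R 4.3.3 (lmFit, eBayes; two-sided, Benjamini-Hochberg over all of them). A pathway gene was represented by its brightest single-symbol probe set. Up to 4 genes per list are named: the 2 largest differences and any past the test. Members and lists were chosen with earlier results of these data known.

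The tests were checked on simulated data with known differences, and most 2-fold ones were missed. Against uncloned HT29, 0 of 50 probe sets changed 2-fold and 16 of 50 changed 4-fold passed. For the antibody these were 8 and 49 of 50. At 4-fold almost none passed against a single array, untreated HT29 or the GFP clone. Against untreated HT29 none passed at 8-fold either, so the absence of a member call there says little. A member that did not pass may therefore still differ. Precision is limited by how few arrays there are. The alternatives were a pseudocount of 1 or 50, no filter, quantile normalization, 1 probe set per gene, a fit of all 8 arrays, and leaving out each array in turn.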

Additional observations from a re-analysis of the deposited data

Results flagged for a closer look

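TARBP2 differed in opposite directions after antibody treatment in the 2 lines, with a log2 difference of 0.55 in Colo357 and -0.10 in HT29, 1 array pair each. The difference of these effects was 0.65, or 0.65 ± 1.05 (SE) in a limma fit of all 8 arrays with an interaction term, added after seeing the data (adjusted p = 1.00; 0 of 11821 probe sets passed). Of all tested probe sets, 31.9% had opposite signs in the 2 lines.

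The dim DICER1 probe set 216260_at read 6.1 in the first 2-vector clone, against 11.5 to 12.4 in the other 3 clones. Its gap to the nearest clone was 0.876 of the range of the 4 clones on the log2 scale, beyond the critical value used for 4 samples. Chance gives such a gap in about 1 of 20 groups, and 9 member probe sets were screened.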

How the results depend on the processing

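None of the 6 tested member probe sets passed the adjusted test under any alternative, except the 3 of DICER1 against the GFP clone without the second 2-vector clone (member calls ranged from 0 to 3 there). AGO1 and TARBP2 kept a positive difference under all 12 alternatives against uncloned HT29 (0.57 to 0.90 and 0.91 to 1.35). With both uncloned arrays kept, limma adjusted p was 0.173 to 0.386 and 0.0706 to 0.366. Every clone was above both uncloned arrays, so leaving out an array or changing the pseudocount could not turn these signs. The settings without the filter and with 1 probe set per gene reuse the main estimates. Only quantile normalization (0.75 and 1.02) and the fit of all 8 arrays (0.57 and 1.21) could have. DICER1 213229_at stayed negative with the antibody under all 6 (-1.19 to -0.71, adjusted p = 0.113 to 0.755). It was lower in both lines, so only quantile normalization (-0.90) could have changed that sign. The antibody fit blocks on the line, which pairs the treated and the untreated array of each line. The clone comparisons were not paired, since the labels name no pairs for them. Of 554 single-probe-set and list-median values under alternatives, 483 kept direction and side of the threshold, or moved by less than the spread among clones where there was no test. That count includes values whose direction the setting could not change.

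Against uncloned HT29, DICER1 213229_at changed sign to -0.019 with pseudocount 1 and -0.52 in the fit of all arrays, with leave-one-out values of -0.63 to 0.66; DICER1 212888_at changed sign to 0.036 with pseudocount 50, with leave-one-out values of -0.74 to 0.33; DICER1 206061_s_at ranged from -0.75 to 0.050, DROSHA from -0.39 to 0.31, NUP153 -0.83 to 0.011, TUT7 -0.29 to 1.25 (-0.060 in the fit of all arrays), OAS2 -0.25 to 1.32 and EIF2AK2 -1.16 to 0.13 as arrays were left out. The median of double-stranded RNA sensors changed sign to 0.034 with pseudocount 50. Against the GFP clone, quantile normalization turned AGO1 to 0.024 and DROSHA to 0.062, and DROSHA ranged from -0.18 to 0.0063 as clones were left out. Between untreated lines, quantile normalization turned DICER1 212888_at to -0.15 and TARBP2 to 0.036. The cause of these sign changes was not tested.

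The counts over all probe sets moved more. Against untreated HT29, 15 passed in the main setting, 24 with pseudocount 1, 5 with pseudocount 50, 0 without the filter, 146 in the fit of all arrays and 0 to 27 with a clone left out (27 without the GFP clone, 0 without any 1 CD24 shRNA clone, where 834 to 987 had an unadjusted p under 0.05; 1940 had one without the filter). Against uncloned HT29 they were 268, 165 in the fit of all arrays and 15 to 443 with an array left out (443 without the GFP clone, 112 without the 1-vector clone, 80 without the second 2-vector clone, 39 without the untreated and 15 without the antibody-treated array). For the antibody they were 663, 79 with pseudocount 1, 439 with pseudocount 50, 25 with 1 probe set per gene, and 0 without the filter, with quantile normalization or in the fit of all arrays (3366, 2513 and 867 at an unadjusted p under 0.05). Against the GFP clone they were 0 (1303 at an unadjusted p under 0.05), 4 with pseudocount 50, 2 with quantile normalization, 1 with 1 probe set per gene and 3 to 820 with a clone left out (820 without the second 2-vector clone). At 2-fold, pseudocount 50 gave 713 in place of 1407 probe sets for the antibody in HT29 and 1838 in place of 2865 in Colo357, and quantile normalization changed the split of higher and lower calls to 610 and 636 in place of 511 and 896 in HT29. SMAD3 passed at adjusted p = 0.0396 to 0.0461 with pseudocount 50, quantile normalization or 1 probe set per gene.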
